A study of Mus musculus with 15 samples.

Results

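The unfolded protein response and the integrated stress response were followed through 34 genes of the ATF4, ATF6 and XBP1 pathways, listed by gene symbol as members of these pathways. All 34 were matched to an Ensembl ID among the 49315 genes of the count tables. The list held 3 stress sensors, 5 transcription factors, 4 feedback and effector genes of ATF4, 6 enzymes and transporters of amino acid and one-carbon metabolism, 11 endoplasmic reticulum (ER) chaperones and folding factors, and 5 genes of ER-associated degradation.

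When unfolded proteins build up in the ER, the sensors IRE1 (Ern1), PERK (Eif2ak3) and ATF6 are activated. IRE1 splices the Xbp1 mRNA, PERK phosphorylates the translation factor eIF2 and so favours translation of Atf4, and ATF6 is cut in the Golgi to release a transcription factor. XBP1 and ATF6 act on chaperone and degradation genes, whereas ATF4 acts on amino acid genes and on Ddit3, which encodes CHOP, and it is also reached from other eIF2 kinases as the integrated stress response. Much of this control lies in splicing, phosphorylation, cleavage and translation, which gene-level mRNA counts do not measure.

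RNA was sequenced from primary myoblasts, the precursors of muscle fibres, taken from the muscle of wild-type C57BL/6J mice. The knockdown cells had received lipid-delivered small interfering RNA against Sirt1 (siSirt1), which encodes an NAD-dependent deacetylase, or against Lmod1 (siLmod1), which encodes an actin filament nucleator. The control cells had received a control siRNA (siCtrl), and all groups were differentiated for 1 day before polyadenylated RNA was taken. Each group held 5 libraries numbered 1, 2, 3, 4 and 7, taken here as 5 primary lines, and values per library are given below in that order. The double knockdown that the study's aim mentions was not analysed here.

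The libraries held 21004908 to 27815744 counted reads in siSirt1, 27135398 to 31829009 in siLmod1 and 26097889 to 33601761 in siCtrl. Lmod1 stood at 2.51, 5.46, 3.88, 1.41 and 4.23 CPM (counts scaled to library size) in siLmod1, against 23.2, 44.3, 35.0, 6.20 and 43.4 CPM in siCtrl, a log2 difference of -2.97 (exact two-sided permutation p = 0.00794, the smallest that 5 against 5 libraries can give). Sirt1 stood at 4.59, 3.48, 3.48, 10.7 and 9.22 CPM in siSirt1, against 27.4, 17.9, 21.5, 28.4 and 36.2 CPM in siCtrl, a log2 difference of -2.18 (exact two-sided permutation p = 0.00794). Both permutations left out the pairing of libraries by number. The summed level of 8 myoblast and early muscle markers was 6743 to 18269 TPM in siSirt1, 8148 to 22854 TPM in siLmod1 and 8915 to 24275 TPM in siCtrl. Defining markers of fibroblasts (Pdgfra, Lum, Dpt), endothelium (Pecam1, Kdr, Emcn), leukocytes (Ptprc, Adgre1) and Schwann cells (Sox10) were under 1 TPM in every library.

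Sequence around the gene starts is given first, because ATF4, ATF6 and XBP1 are known by the short DNA elements they bind. RefSeq promoters (build GRCm38.p6, 250 bases before to 50 after the start) were found for 31 of the 34 genes and not for Atf6, Hyou1 and Manf. The element bound by ATF4 with a C/EBP partner was searched as TGATGNAA on both strands. It was present in 6 of the 31 genes and in 4.51% of all 27025 genes with a promoter. The ER stress response element of ATF6 and XBP1 was searched as CCAAT and CCACG with 9 bases between them. It was present in 7 genes, 6 of them chaperones, and in 0.137% of all genes with a promoter. A second form, searched as ATTGG and CCACG separated by 1 base, was present in 2 genes and in 0.0444% of all genes with a promoter. TGACGTGG, a core of the unfolded protein response element, was in none of the 31 and in 0.714% of all genes with a promoter. A match describes letters only and shows no binding.

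The matches of the ATF4 element are shown with 30 bases of the gene's own strand, with the match in capitals, so that the genes holding the ATF4 element can be set beside their values below. They lie at chr1:191183425-191183454 (Atf3), chr2:152344028-152344057 (Trib3), chr2:119351038-119351067 (Chac1), chr6:7693214-7693243 (Asns), chr3:50443661-50443690 (Slc7a11, first match) and chr8:94386306-94386335 (Herpud1); Chac1 and Herpud1 lie on the plus strand and the others on the minus strand.
Atf3: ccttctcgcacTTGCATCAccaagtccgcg
Trib3: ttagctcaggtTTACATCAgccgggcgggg
Chac1: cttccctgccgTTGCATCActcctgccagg
Asns: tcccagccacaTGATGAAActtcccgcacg
Slc7a11: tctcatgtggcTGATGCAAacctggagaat
Herpud1: accacggcgggTTGCATCAgcccgcacccc

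The ER stress response elements are shown in the same way for the chaperone genes and for both degradation genes that held one, for the same reason. Herpud1 and Dnajb11 held the second form, and of 2 matches in Hsp90b1 the first is shown. They lie at chr2:34772020-34772049 (Hspa5), chr10:86705632-86705661 (Hsp90b1), chr8:84847069-84847098 (Calr), chr11:50325794-50325823 (Canx), chr14:118937822-118937851 (Dnajc3), chr15:88819515-88819544 (Creld2), chr19:6046527-6046556 (Syvn1), chr16:22857843-22857872 (Dnajb11) and chr8:94386368-94386397 (Herpud1); Hsp90b1, Calr and Canx lie on the minus strand and the others on the plus strand.
Hspa5: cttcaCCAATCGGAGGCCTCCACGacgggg
Hsp90b1: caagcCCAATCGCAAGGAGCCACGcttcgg
Calr: caacgCGTGGTCGACCCTCATTGGcccata
Canx: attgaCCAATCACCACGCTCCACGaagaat
Dnajc3: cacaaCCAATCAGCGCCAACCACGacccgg
Creld2: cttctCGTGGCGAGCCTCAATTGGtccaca
Syvn1: cgcaaCCAATCGGCGGTAGCCACGggaaca
Dnajb11: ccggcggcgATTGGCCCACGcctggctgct
Herpud1: cgggcgctgATTGGGCCACGttggacactg

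**Figure D1:**
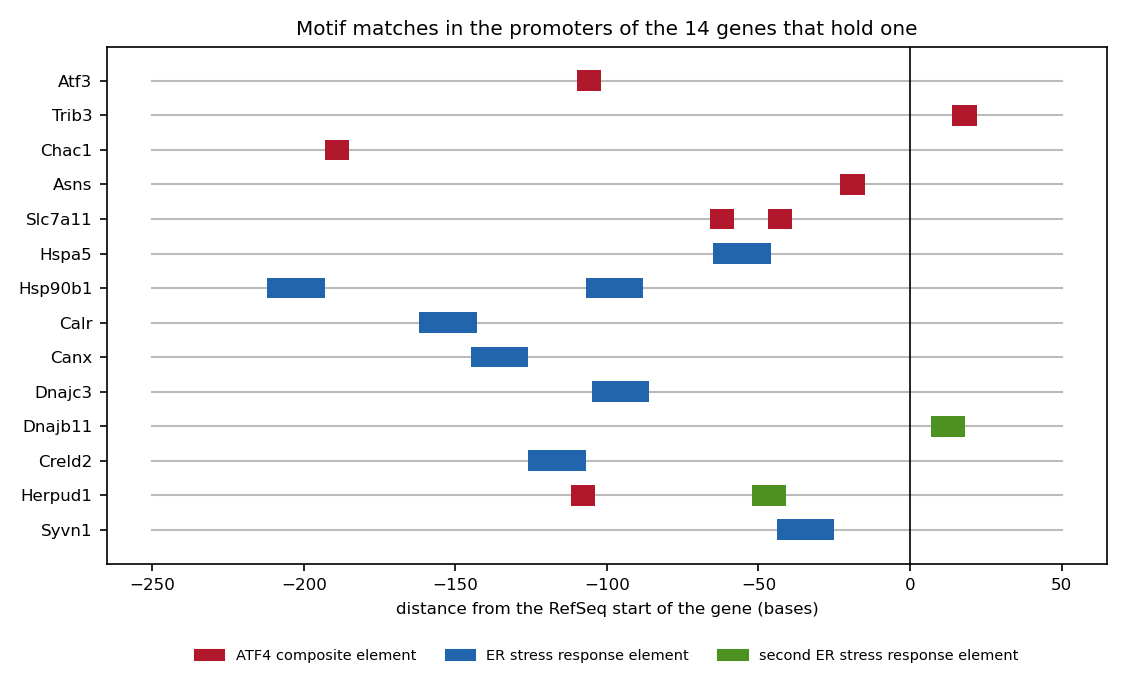
Positions of the motif matches in the promoters of the 14 genes that hold one, as distance in bases from the RefSeq start; grey lines span the 300 bases searched and coloured bars are the matches. Herpud1 holds both an ATF4 element and the second ER stress response element.

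In control cells the list spanned a wide range of levels. Per length, the ER chaperones Calr (calreticulin), Hsp90b1 (GRP94) and Hspa5 (BiP) were the most abundant, at 658 ± 140 TPM, 654 ± 212 TPM and 653 ± 224 TPM in siCtrl (SD, n = 5), followed by Atf4 at 539 ± 82.5 TPM. The SDs of the 3 chaperones overlap, so that their order is not set. At the low end, Ern1 stood at 13.8 ± 1.94 TPM, Eif2ak3 at 11.1 ± 3.4 TPM, the cystine transporter Slc7a11 at 3.12 ± 2.59 TPM and Foxred2 at 1.4 ± 0.63 TPM. Lines differed from each other in the same group: the stress-induced factor Atf3 spanned 15.63-fold between siCtrl libraries and Chac1, a glutathione-degrading enzyme, 7.40-fold, while Ern1 spanned 1.21-fold.

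The question whether knockdown of Sirt1 changed these genes gave no call when the line was left out of the model. In edgeR's quasi-likelihood test with the group alone, 0 of the 34 genes passed an adjusted p under 0.05 in siSirt1 against siCtrl, where 0.127% of all genes tested passed, and at an unadjusted p below 0.05, 5 of the 34 were higher and 0 lower, where 4.86% of all genes were higher and 4.79% lower. DESeq2 without the line called 1 of the 34, Foxred2, and 2.19% of the genes to which it gave an adjusted p. The numbers were taken to pair the libraries, though this is uncertain for the siSirt1 library of line 1, as given below. With the line as a block 12 of 34 rose and 0 fell, where 2.72% of all 14912 genes tested were called higher and 4.35% lower. The median log2 fold change was 0.31 over the 34 genes and 0.01 over all genes tested. The 34 genes were chosen with earlier results of these data known. Their counts, here and in the comparisons below, stand beside the shares of all genes as a description and no test of the list. The 12 were Eif2ak3, Atf3, Ddit3, Trib3, Sesn2, Hspa5, Dnajb9, Manf, Creld2, Herpud1, Sel1l and Foxred2. All further adjusted p-values are from the blocked edgeR fit unless named otherwise. In bulk RNA, fewer cells of a type and less RNA per cell cannot be told apart.

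**Figure D2:**
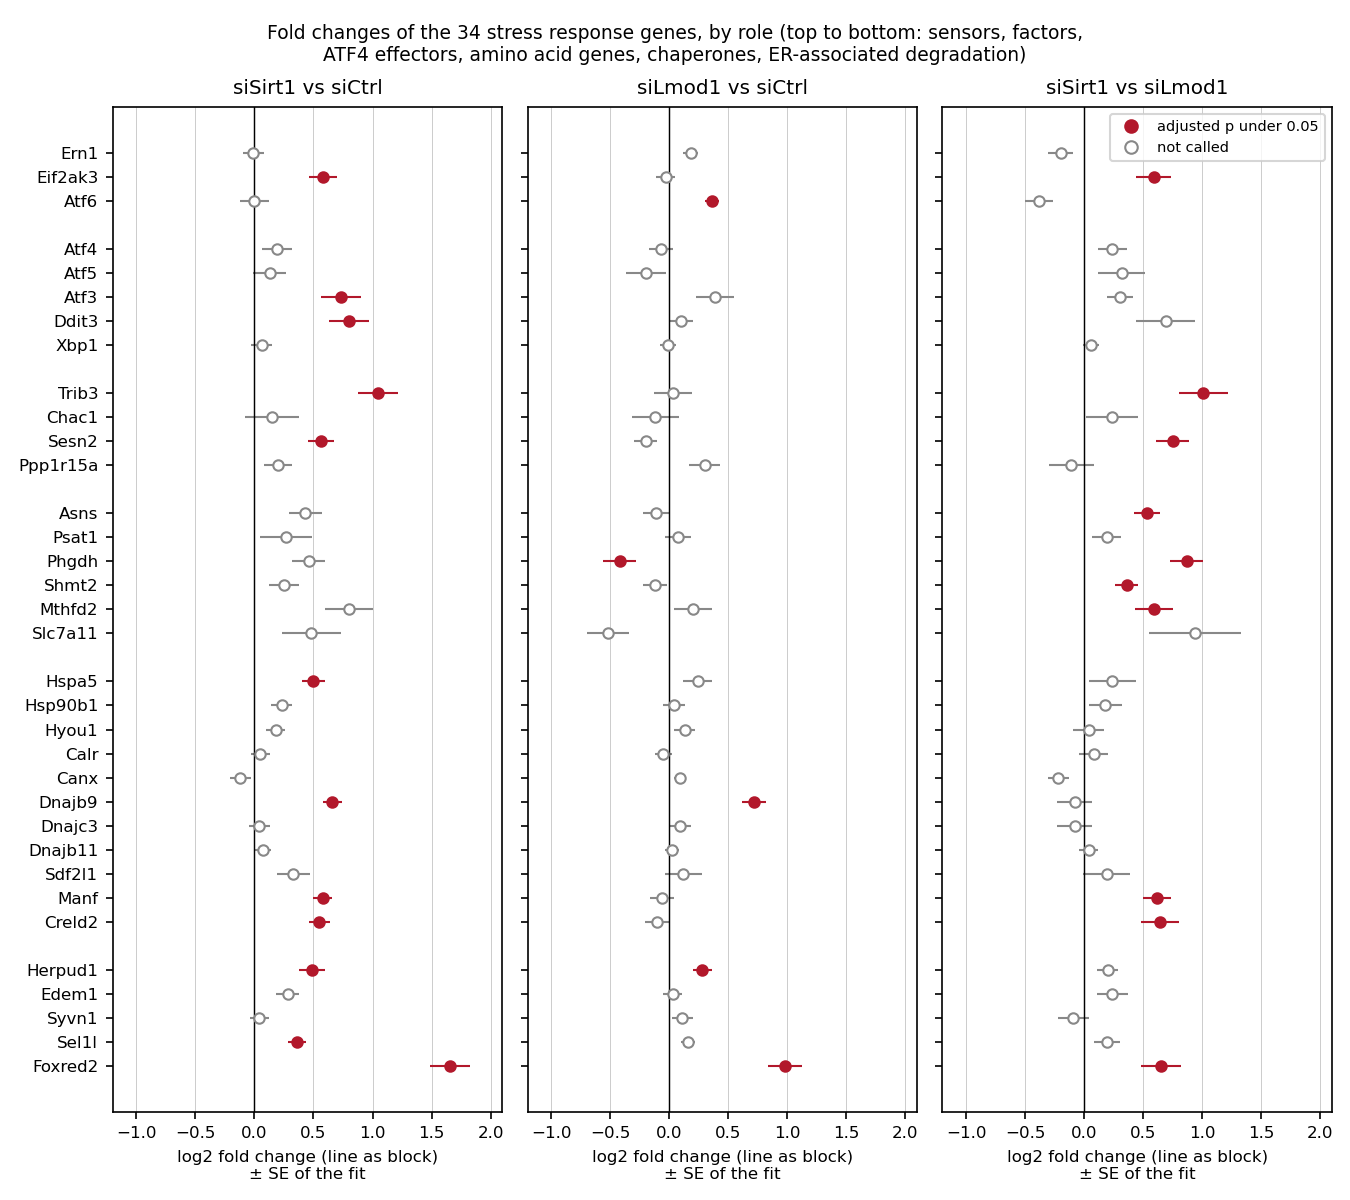
Log2 fold changes (x axis, with the line as a block) of the 34 genes in 3 comparisons, grouped by role down the page. Bars are the SE, derived from the F statistic of the test. Filled points passed an adjusted p under 0.05: 12 in siSirt1 against siCtrl, 5 in siLmod1 against siCtrl and 10 in siSirt1 against siLmod1.

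Of the 3 sensors, Eif2ak3 rose and the other two did not pass. Eif2ak3 (PERK) had 31.4, 15.7, 22.8, 44.2 and 57.2 CPM in siSirt1, against 22.3, 12.3, 17.5, 28.4 and 28.6 CPM in siCtrl. It was higher in siSirt1 in each line, though the groups overlap, and the log2 fold change was 0.58 ± 0.12 (SE, adjusted p = 0.028). Ern1 gave a log2 fold change of -0.01 (adjusted p = 0.97) and Atf6 one of -0.00 (adjusted p = 0.99). Atf6 was higher in siSirt1 in lines 1 and 2 and lower in the others, of which line 7 stood at 0.03 log2 CPM above siCtrl by library total.

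Among the transcription factors, Ddit3 and Atf3 rose while Atf4, Atf5 and Xbp1 did not pass. Ddit3 (CHOP) had 43.3, 28.9, 59.6, 61.0 and 106 CPM in siSirt1, against 34, 20.3, 42.7, 25.8 and 39.4 CPM in siCtrl. All 5 lines were higher in siSirt1, most of all lines 4 and 7, and the log2 fold change was 0.80 ± 0.17 (SE, adjusted p = 0.034), a 1.74-fold difference. Ddit3 shares 68 exon bases, 3.97% of its length, with the antisense gene Mars, whose log2 fold change was 0.13 (adjusted p = 0.58); the libraries keep no strand. Atf3 had 13.4, 10.2, 40.8, 81.5 and 44.2 CPM in siSirt1, against 7.12, 5.46, 19.5, 85.3 and 24.5 CPM in siCtrl. Line 4, which held by far the most Atf3 in siCtrl, was the one line not higher in siSirt1, at -0.07 log2 CPM, but stood at 0.13 by library total without the TMM factors. The log2 fold change of Atf3 was 0.73 ± 0.17 (SE, adjusted p = 0.041). Atf4 gave 0.19 (adjusted p = 0.41), Atf5 0.13 (adjusted p = 0.59) and Xbp1 0.06 (adjusted p = 0.7) on the log2 scale, each higher in 4 of 5 lines.

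Of the 4 ATF4 feedback and effector genes, 2 rose. Trib3, a pseudokinase induced by ATF4 and CHOP, had 22.1, 17.0, 66.6, 34.7 and 58.0 CPM in siSirt1, against 18.2, 6.96, 33.2, 12.7 and 24.5 CPM in siCtrl. The log2 fold change was 1.05 ± 0.17 (SE, adjusted p = 0.013), a 2.08-fold difference, with a rise in every line that was smallest in line 1. Sesn2, a stress-induced leucine sensor, had 71.3, 41.1, 102, 48.2 and 85.8 CPM in siSirt1, against 42.4, 34.8, 54.6, 37.9 and 59.9 CPM in siCtrl. It was higher in siSirt1 in all 5 lines, by 0.56 ± 0.11 (SE, adjusted p = 0.028). Chac1 gave 0.15 (adjusted p = 0.73) and Ppp1r15a (GADD34, the subunit that directs eIF2 dephosphorylation) 0.20 (adjusted p = 0.34). Within lines the Chac1 differences, in log2 CPM, were -0.88, 0.89, 0.58, -0.06 and 0.28, so that line 1 ran against lines 2 and 3.

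None of the 6 amino acid and one-carbon genes passed against siCtrl. Mthfd2, a mitochondrial folate enzyme, came nearest at 0.80 ± 0.20 (SE, adjusted p = 0.052). It had 145, 141, 320, 62.0 and 164 CPM in siSirt1, against 102, 50.2, 129, 58.4 and 108 CPM in siCtrl, and was higher in every line, least in line 4. Phgdh (first step of serine synthesis) gave 0.46 (adjusted p = 0.088), Asns (asparagine synthetase) 0.43 (adjusted p = 0.11) and Slc7a11 0.48 (adjusted p = 0.27). Psat1, the next enzyme of serine synthesis, and Shmt2, a mitochondrial serine-to-glycine enzyme, gave 0.27 (adjusted p = 0.49) and 0.25 (adjusted p = 0.28). The Psat1 differences were 0.52, 0.81, 0.86, -0.29 and -0.57 log2 CPM, higher in lines 1 to 3 and lower in lines 4 and 7.

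Of the 11 ER chaperones and folding factors 4 rose and the most abundant chaperones other than Hspa5 did not pass. Hspa5 (BiP), the main ER chaperone, had 1071, 778, 819, 1857 and 2103 CPM in siSirt1, against 766, 603, 682, 1105 and 1363 CPM in siCtrl. It was higher in siSirt1 in each line, by 0.50 ± 0.10 (SE, adjusted p = 0.028) on the log2 scale. Dnajb9 (ERdj4), a BiP cochaperone, had 60.3, 39.6, 43.1, 96.8 and 112 CPM in siSirt1, against 39.5, 25.9, 31.1, 53.8 and 66.7 CPM in siCtrl. This rise, 0.66 ± 0.08 (SE, adjusted p = 0.0073), was seen in 5 of 5 lines.

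Manf and Creld2, small ER proteins induced by ER stress, were the other members of the group that rose. Manf had 172, 138, 122, 190 and 288 CPM in siSirt1, against 102, 105, 80.0, 125.7 and 200 CPM in siCtrl, a log2 fold change of 0.58 ± 0.08 (SE, adjusted p = 0.009). Creld2 had 80.7, 46.2, 46.1, 77.6 and 119 CPM in siSirt1, against 46.9, 33.3, 34.2, 48.8 and 89.6 CPM in siCtrl, a log2 fold change of 0.55 ± 0.09 (SE, adjusted p = 0.013). Both were higher in siSirt1 in every line and the groups overlap, line 7 being highest in each group. Manf shares 14 exon bases with Rbm15b on the same strand (log2 fold change 0.44, adjusted p = 0.05) and 146 with the antisense gene Dcaf1 (0.26, adjusted p = 0.11). Their part in the Manf value was not tested. Hsp90b1 gave 0.23 (adjusted p = 0.16), Hyou1 (GRP170) 0.18 (adjusted p = 0.2) and Sdf2l1 0.33 (adjusted p = 0.2), each higher in 5 of 5 lines without passing. Calr, Canx (calnexin), Dnajc3 (an inhibitor of PERK and cochaperone) and Dnajb11 (ERdj3) lay between -0.12 and 0.07.

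In ER-associated degradation, 3 of 5 genes rose, with Foxred2 showing the largest fold change of the 34. Foxred2, described in human cells as an ER flavoprotein of this pathway, had 9.25, 6.39, 8.08, 5.57 and 12.5 CPM in siSirt1, against 2.80, 2.12, 1.99, 1.84 and 4.72 CPM in siCtrl. These groups do not overlap, though the share of all genes without overlap was not counted. The log2 fold change was 1.66 ± 0.17 (SE, adjusted p = 0.0041), a 3.17-fold difference. Without the line the value was 1.63 (adjusted p = 0.1). Herpud1, a scaffold of the ubiquitin ligase complex, had 180, 157, 220, 98.5 and 232 CPM in siSirt1, against 128, 115, 124, 95.0 and 152 CPM in siCtrl. It rose by 0.49 ± 0.11 (SE, adjusted p = 0.041), with almost no difference in line 4. Sel1l, the adaptor of the ligase Syvn1 (HRD1), had 190, 160, 155, 210 and 262 CPM in siSirt1, against 129, 131, 135, 158 and 207 CPM in siCtrl, and rose by 0.36 ± 0.08 (SE, adjusted p = 0.038). Edem1, a mannosidase-like lectin, and Syvn1 itself gave 0.28 (adjusted p = 0.11) and 0.04 (adjusted p = 0.83).

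**Figure D3:**
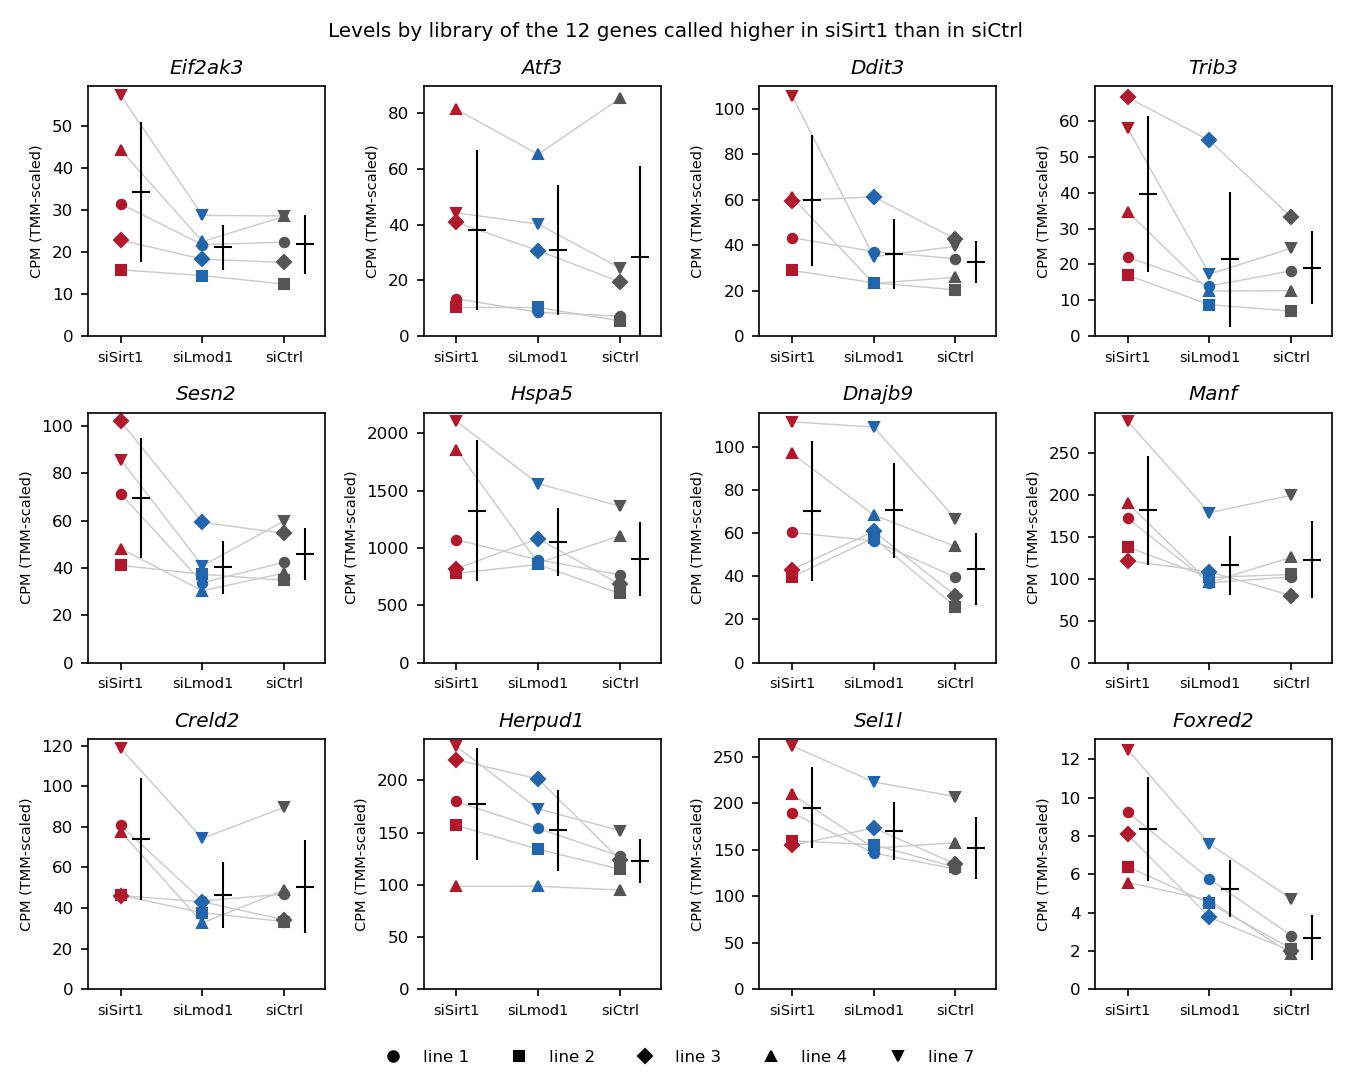
CPM (y axis, scaled by TMM) in each library of the 12 genes called higher in siSirt1 than in siCtrl; marker shapes are the 5 lines, grey lines join libraries of the same line, and black bars are the mean ± SD of 5 libraries, drawn from 0 up. Of these 12, Foxred2 is the gene whose siSirt1 and siCtrl libraries do not overlap. The share of all genes without overlap was not counted.

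The calls differed in how far they rested on single lines. Trib3, Dnajb9, Manf, Creld2 and Foxred2 passed in all 5 blocked fits that left out 1 line. Sesn2 passed in 2 of the 5, and Atf3 and Herpud1 in 1 each, the fit without line 4. Eif2ak3, Ddit3, Hspa5 and Sel1l passed in none of the 5, with adjusted p-values of 0.056 to 0.078, 0.054 to 0.091, 0.052 to 0.088 and 0.072 to 0.12. The siSirt1 library of line 1 paired least clearly, with correlations of 0.256 and 0.277 to the other libraries of its number. These lie within the range of libraries of different numbers, which reached 0.286, so its pairing is uncertain. Without line 1, 5 of the 12 were called, all higher, where 0.478% of all genes were called higher: Trib3, Dnajb9, Manf, Creld2 and Foxred2.

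Line by line, the median difference of the 34 genes was 0.31, 0.36, 0.42, 0.32 and 0.31 log2 CPM between siSirt1 and siCtrl, where the median of all genes tested lay between -0.01 and 0.01. Of the 34, 15 were higher in siSirt1 in all 5 lines and 0 lower in all 5, where 12.3% and 12.7% of all genes tested were. With CPM by library total instead, 20 were higher in all 5 lines, the further ones being Atf3, Asns, Phgdh, Dnajb11 and Edem1. By that scale 20.3% of all genes were higher in all 5 lines and 7.31% lower, and the median of all genes moved up by 0.04 to 0.20. By role, the 6 amino acid genes had medians of 0.44, 0.64, 0.76, 0.22 and 0.19, and the 11 chaperones and folding factors 0.27, 0.10, 0.15, 0.31 and 0.24.

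**Figure D4:**
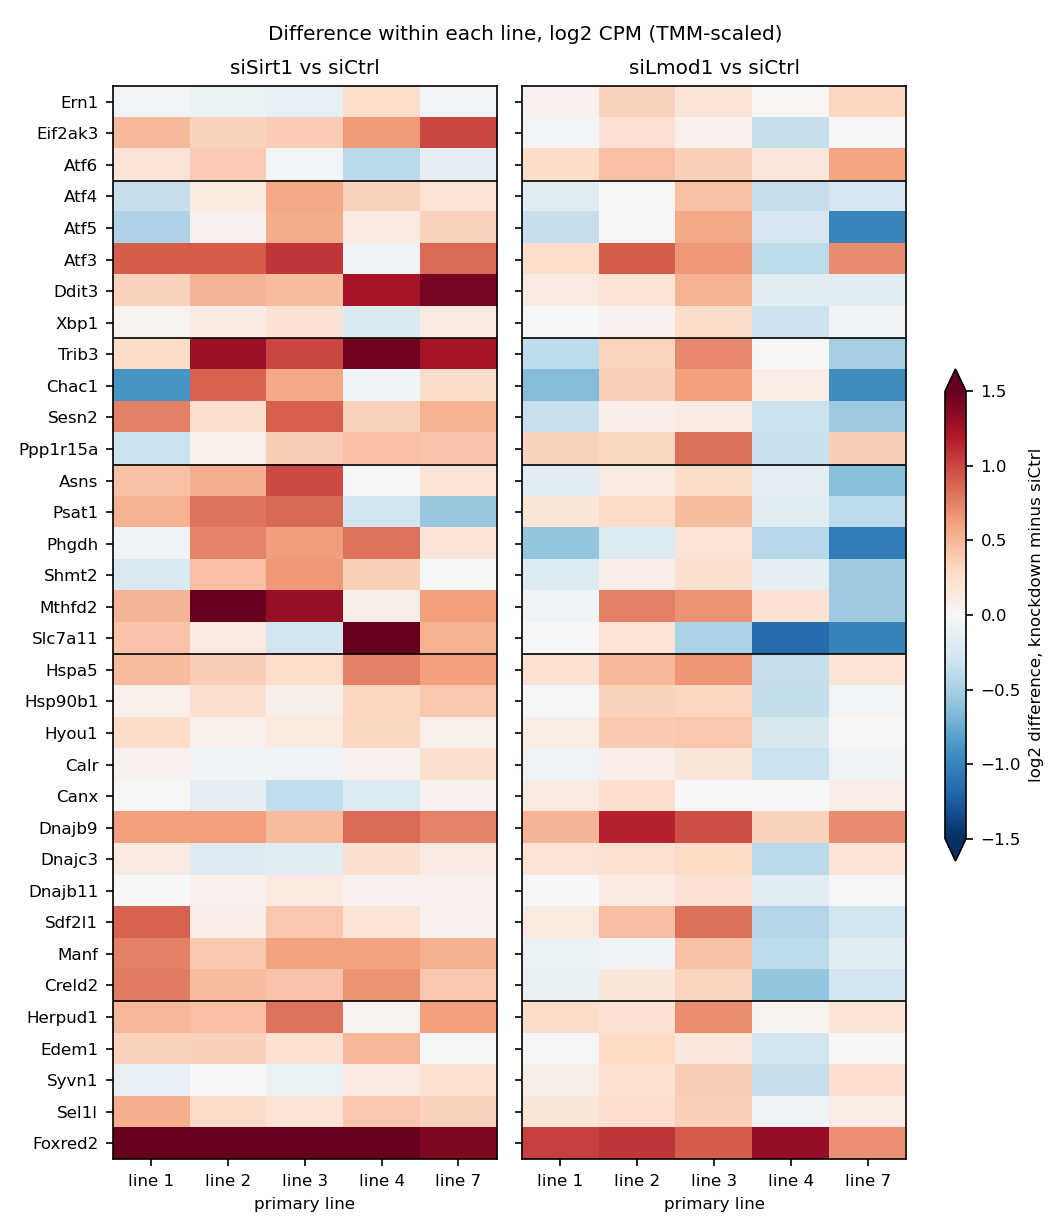
Log2 CPM difference within each line (columns) for each of the 34 genes (rows, grouped by role), siSirt1 minus siCtrl at the left and siLmod1 minus siCtrl at the right; red is higher in the knockdown, and the colour scale ends at 1.5. Foxred2 and Dnajb9 are red in every line of both panels, and line 4 is mostly blue in the siLmod1 panel.

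In siLmod1, calls went in both directions; these cells were set against the same siCtrl libraries as siSirt1. With the group alone, 0 of the 34 passed in siLmod1 against siCtrl, where 0.113% of all genes tested passed; at an unadjusted p below 0.05, 3 were higher and 0 lower, where 4.23% of all genes were higher and 4.77% lower. DESeq2 without the line called 0, and 1.6% of the genes to which it gave an adjusted p. With the line as a block 4 rose (Atf6, Dnajb9, Herpud1 and Foxred2) and 1 fell (Phgdh), while 12.9% of all 15022 genes tested were called higher and 16.5% lower. The share of the 34 called higher was close to that of all genes, and the share called lower was below it. The count called higher depended on line 4, as given below. The median log2 fold change was 0.05 over the 34 and -0.01 over all genes.

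Foxred2 had 5.75, 4.48, 3.75, 4.64 and 7.58 CPM in siLmod1, against 2.80, 2.12, 1.99, 1.84 and 4.72 CPM in siCtrl. The groups overlap only through siCtrl line 7, each line was higher in siLmod1, and the log2 fold change was 0.98 ± 0.14 (SE, adjusted p = 0.00065). Dnajb9 had 56.4, 57.7, 60.8, 68.4 and 109 CPM in siLmod1, against 39.5, 25.9, 31.1, 53.8 and 66.7 CPM in siCtrl, higher in 5 of 5 lines by 0.72 ± 0.10 (SE, adjusted p = 0.00074). Atf6 had 445, 377, 524, 405 and 607 CPM in siLmod1, against 368, 276, 407, 360 and 403 CPM in siCtrl, higher in 5 of 5 lines by 0.36 ± 0.06 (SE, adjusted p = 0.0021). Foxred2, Dnajb9 and Atf6 passed in all 5 blocked fits without 1 line. In the blocked fit of all 15 libraries Foxred2 and Dnajb9 passed, while Atf6, Herpud1 and Phgdh lost the call. Herpud1 rose by 0.28 ± 0.08 (SE, adjusted p = 0.028) and lost its call without line 1 or line 3.

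Phgdh had 57.4, 55.8, 179, 70.3 and 64.7 CPM in siLmod1, against 85.8, 64.2, 156, 95.0 and 134 CPM in siCtrl. It was lower in siLmod1 in 4 of 5 lines, with a log2 fold change of -0.42 ± 0.14 (SE, adjusted p = 0.046), and passed in 1 of the 5 fits without a line, that without line 3. Slc7a11 and Ern1 stood just outside the threshold at -0.52 (adjusted p = 0.051) and 0.18 (adjusted p = 0.051). The ATF4 feedback and effector genes did not pass. Trib3 gave 0.03 (adjusted p = 0.93), Chac1 -0.12 (adjusted p = 0.71) and Sesn2 -0.20 (adjusted p = 0.14). Ppp1r15a gave 0.30 (adjusted p = 0.1) and was higher in 4 of 5 lines. The factor Ddit3 gave 0.10 (adjusted p = 0.48). The line medians of the 34 genes were 0.00, 0.24, 0.37, -0.26 and -0.04 log2 CPM, so that lines 3 and 4 lay on opposite sides of 0. Without line 4, 12 of the 34 were called, all higher, among them Hspa5, Atf3 and Hyou1, where 12.7% of all genes were called higher. Of the 34, 5 were higher in siLmod1 in all 5 lines and 0 lower, where 17.8% and 18.7% of all genes were. By library total 7 were higher, with Canx and Sel1l added, and 0 lower, where 23% and 14.5% of all genes were.

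The knockdowns were also compared with each other, as libraries of the same lines. With the group alone, 0 of the 34 passed in siSirt1 against siLmod1, where 1.53% of all genes tested passed; at an unadjusted p below 0.05, 4 were higher in siSirt1 and 1 lower, where 8.17% of all genes were higher and 8.33% lower. DESeq2 without the line called 0, and 5.64% of the genes to which it gave an adjusted p. With the line as a block 10 were higher in siSirt1 and 0 lower, where 7.43% of all 14998 genes tested were called higher and 8.43% lower. The median log2 fold change was 0.24 over the 34 and 0.01 over all genes. The 10 were Eif2ak3, Trib3, Sesn2, Asns, Phgdh, Shmt2, Mthfd2, Manf, Creld2 and Foxred2.

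Of the 6 amino acid and one-carbon genes, 4 were higher in siSirt1 than in siLmod1. Phgdh had 81.7, 107, 241, 166 and 153 CPM in siSirt1, against 57.4, 55.8, 179, 70.3 and 64.7 CPM in siLmod1. It was higher in siSirt1 in each line, by 0.87 ± 0.14 (SE, adjusted p = 0.0078), and passed in all 5 fits that left out 1 line. Asns had 167, 252.4, 331, 80.7 and 181 CPM in siSirt1, against 109, 190, 202, 75.0 and 102 CPM in siLmod1, higher in 5 of 5 lines by 0.53 ± 0.11 (SE, adjusted p = 0.02). Mthfd2 differed by 0.59 ± 0.16 (SE, adjusted p = 0.045) and Shmt2 by 0.36 ± 0.10 (SE, adjusted p = 0.045), each higher in 4 of 5 lines (5 of 5 for Shmt2 by library total). Asns passed in 2 of the 5 fits without a line, and Mthfd2 and Shmt2 in 1 each.

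Trib3 had 22.1, 17.0, 66.6, 34.7 and 58.0 CPM in siSirt1, against 13.98, 8.76, 54.6, 12.6 and 17.3 CPM in siLmod1, higher in every line by 1.01 ± 0.21 (SE, adjusted p = 0.016). Sesn2 had 71.3, 41.1, 102, 48.2 and 85.8 CPM in siSirt1, against 33.8, 37.3, 59.2, 30.4 and 40.9 CPM in siLmod1, higher in every line by 0.75 ± 0.14 (SE, adjusted p = 0.013). Trib3, Sesn2 and Manf each lost the call in 1 of the 5 fits without a line: without line 4 for Trib3 and without line 1 for Sesn2 and Manf. Manf differed by 0.62 ± 0.12 (SE, adjusted p = 0.015), Creld2 by 0.64 ± 0.16 (SE, adjusted p = 0.033), Eif2ak3 by 0.59 ± 0.15 (SE, adjusted p = 0.032) and Foxred2 by 0.65 ± 0.17 (SE, adjusted p = 0.038). Creld2 passed in 2 of the 5 fits, and Eif2ak3 and Foxred2 in 1 each. Rbm15b, which overlaps Manf by 14 exon bases, differed by 0.59 (adjusted p = 0.0056). Dnajb9, higher in both knockdowns, differed between them by -0.08 ± 0.15 (SE, adjusted p = 0.75), and Ddit3 by 0.69 ± 0.25 (SE, adjusted p = 0.097). Atf6 was lower in siSirt1 than in siLmod1 in 5 of 5 lines at -0.38 ± 0.12 (SE, adjusted p = 0.07), and Canx likewise at -0.22 ± 0.09 (SE, adjusted p = 0.14), without passing. Of the 34, 8 were higher in siSirt1 in all 5 lines and 2 lower, Atf6 and Canx, where 15.3% of all genes were in each direction. By library total 11 were higher, with Shmt2, Herpud1 and Edem1 added, and 0 lower, where 19.3% and 11.6% of all genes were; Atf6 in line 1 and Canx in line 7 then lay at 0.00 and 0.13 log2 CPM.

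The genes with and without a motif match are set side by side here. With the block, 3 of the 6 genes holding the ATF4 element rose in siSirt1 against siCtrl (Atf3, Trib3 and Herpud1; median log2 fold change 0.48), against 8 of the 25 with a promoter and no match (0.27). Of the 7 with the first ER stress response element, 2 rose (Hspa5 and Creld2; median 0.05), against 9 of the 24 without it (0.40). These counts are a description with no test.

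Further genes of the pathways were called in both directions. In siSirt1 against siCtrl with the block, 2.72% of all genes were called higher and 4.35% lower, and no test set the counts of the lists apart from these shares. Of 26 other ATF4 targets tested, 2 rose and 1 fell: Cebpg (0.60, adjusted p = 0.009), a C/EBP partner factor, and Nupr1 (1.12, adjusted p = 0.028), a stress-induced chromatin protein, against Ddit4 (-0.85, adjusted p = 0.015), an inhibitor of mTORC1. Of 20 other folding and oxidation genes 1 rose, the disulfide isomerase Pdia4 (0.66, adjusted p = 0.011). Of 18 other degradation genes 2 fell, Ube2g2 (-0.90, adjusted p = 0.0097), a ubiquitin-conjugating enzyme, and Herpud2 (-0.40, adjusted p = 0.035). Among 12 genes of eIF2 control, Ppp1r15b rose (0.34, adjusted p = 0.037) and Eif2b5 fell (-0.32, adjusted p = 0.05, rounded from just under the threshold). None of 19 translocon and secretory pathway genes passed. The same held for 11 genes of unfolded protein response activation and bZIP factors. A further 9 genes are linked to ER stress and cell death, a list that also holds Bcl2 and, shared with the folding list, Ero1l. Of these 9, Bcl2l11 (BIM) rose by 1.32 (adjusted p = 0.02). Pmaip1 (-0.75, adjusted p = 0.015), Tnfrsf10b (-0.44, adjusted p = 0.044) and Cdkn1a (-0.76, adjusted p = 0.014) fell. Several of these are also p53 targets. Of 11 interferon response genes tested, which double-stranded RNA can induce, 1 rose, Rsad2 (1.20, adjusted p = 0.033).

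In siLmod1 against siCtrl with the block, 12.9% of all genes were called higher and 16.5% lower. There 8 of the 18 other degradation genes rose and 1 fell, led by Fam8a1 (0.79, adjusted p = 7e-05), a partner of HRD1, and Ube2j1 (-0.71, adjusted p = 6.5e-05). Of the 20 other folding genes 3 rose and 3 fell, among them the oxidase Ero1l (0.77, adjusted p = 2.9e-05) and the isomerase Pdia6, which fell (174 CPM in siLmod1 and 343 CPM in siCtrl, means of 5, adjusted p = 0.00013). Of 26 other ATF4 targets 1 rose and 4 fell, and of 19 translocon and secretory pathway genes 6 rose and 1 fell. Of 12 eIF2 control genes 3 rose and 0 fell. Of 11 genes of unfolded protein response activation and bZIP factors 3 rose and 2 fell. Of the 9 genes linked to ER stress and cell death 2 rose and 4 fell, with Ero1l in this list and in the folding list. None of 8 interferon response genes tested passed.

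Between the knockdowns, where 7.43% of all genes were called higher and 8.43% lower in siSirt1 with the block, 7 of the 26 other ATF4 targets were higher in siSirt1 than in siLmod1 and 1 was lower, while 1 of the 18 other degradation genes was higher and 8 were lower. Some muscle and stromal markers were called against siCtrl with the block, and no test set their counts apart from the shares of all genes. Those shares were 2.72% higher and 4.35% lower in siSirt1, and 12.9% higher and 16.5% lower in siLmod1. Of 8 myoblast and early muscle markers 1 fell in siSirt1 (Mymk, -0.54, adjusted p = 0.032) and 4 fell in siLmod1, and of 8 smooth muscle and pericyte markers, with Des in both lists, 1 fell in siSirt1 and 5 fell in siLmod1. The summed level of the smooth muscle and pericyte list was 1531 to 2083 TPM in siSirt1, 2228 to 2878 TPM in siLmod1 and 2087 to 3139 TPM in siCtrl. Of 5 fibroblast markers tested, 1 rose in siSirt1 (Dcn, 1.85, adjusted p = 0.028) and 2 fell in siLmod1. In siSirt1 the log2 fold changes of the 5 ran from -0.92 to 1.85, with a median of -0.26. The part of these markers in the stress gene results was not tested.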

How the data were processed

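The data were 15 RNA libraries from mouse primary myoblasts, 5 in each of 3 groups. The authors deposited raw read counts per Ensembl gene and TPM values (per length and library); per the submitters' processing notes, DESeq2 and the build mm10 were used. Aligner, counter and annotation: not given in the sources used here. Count columns of a library held in 2 tables were identical. Symbols and positions came from GENCODE M21 (mm10), promoters from RefSeq.

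Deposited counts were tested per pair of groups in edgeR 4.0.16 (R 4.3.3) with filterByExpr, TMM and the quasi-likelihood F test, at a Benjamini-Hochberg adjusted p under 0.05 over all genes tested; all 34 genes passed the filter. The first fit used the group alone, and a further fit added the replicate number as a block. Each SE given with a fold change is the absolute log2 fold change over the square root of the F statistic. The numbers were taken to pair the samples, since the series text names 5 primary lines. After removal of group means same-number libraries correlated at 0.256 to 0.868 (15 pairs, 15358 genes), against -0.496 to 0.286 for 60 pairs of different numbers. The ranges overlap through the siSirt1 library of line 1, whose pairing is uncertain. This left 8 residual degrees of freedom without the block and 4 with it, before edgeR's moderation of dispersions across genes. The labels do not say that lines came from separate animals, so p-values speak for the spread between these lines. Other alternatives were RLE factors, no count filter, all 15 libraries in 1 fit, DESeq2 1.42.0, limma 3.58.1 on log2(TPM + 1), and leaving out libraries or lines. Scripts were tested on simulated data.

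CPM are counts over the TMM-scaled library size, and differences within lines are of log2 CPM with 0.5 counts added. CPM by library total was computed first; TMM scaling was chosen after both sets of values had been seen, because library totals moved the median of all genes by up to 0.20 in siSirt1 and the tests use TMM. Levels per library are given by TMM; counts of genes higher or lower in all lines are given under both. The floor of 3 counts lay at 0.088 to 0.133 CPM and covers counting error only. Lmod1 and Sirt1 were compared by exact permutation of log2 CPM, without the pairing by line. The second ER stress response element was added after the first 3 motifs had been searched. The named genes are the 34 members and, of each further list, called genes with the smallest p. The 34 genes and all lists were chosen with earlier results of these data known.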

Additional observations from a re-analysis of the deposited data

Results flagged for a closer look

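Of 102 sets of 5 libraries (34 genes in 3 groups), 13 had 1 library far from the other 4 by Dixon's gap test on TMM-scaled CPM. A rate of 1 in 20 would give 5.1, but that rate assumes independent, normally distributed sets. The 34 genes share the same libraries and the CPM were not logged, so 5.1 is no measure of chance here. By library total there were 9, of which 8 were shared.

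In line 3 of siLmod1, 3 of the 34 genes stood far above the other siLmod1 libraries. Trib3 stood at 54.6 CPM there, against 8.76 to 17.3 CPM in the other siLmod1 libraries, Phgdh at 179 CPM against 55.8 to 70.3 CPM, and Mthfd2 at 206 CPM against 67.9 to 98.0 CPM. Line 3 also held the highest siSirt1 and siCtrl values of these 3 genes. They were 66.6 and 33.25 CPM for Trib3, 241 and 156 CPM for Phgdh, and 320 and 129 CPM for Mthfd2. In siSirt1, Shmt2 stood at 143 CPM in line 3, against 77.6 to 93.9 CPM in the others.

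In line 7, 5 genes stood apart in siLmod1 and 3 in siCtrl. In siLmod1, Hyou1 stood at 517 CPM against 233 to 305 CPM, Dnajb9 at 109 CPM against 56.4 to 68.4 CPM, Manf at 179 CPM against 95.2 to 108 CPM, Creld2 at 74.3 CPM against 32.7 to 43.5 CPM and Edem1 at 80.3 CPM against 28.4 to 40.0 CPM. In siCtrl, Hyou1 stood at 510 CPM in line 7 against 221 to 283 CPM, Creld2 at 89.6 CPM against 33.3 to 48.8 CPM and Edem1 at 79.7 CPM against 32.1 to 40.7 CPM. Atf3 stood at 85.3 CPM in siCtrl line 4, against 5.46 to 24.5 CPM in the others. By library total, Shmt2, both Hyou1 and both Creld2 values were no longer far from the others, and Atf5 in siLmod1 line 3 was added (147 CPM by library total, against 51.7 to 77.4 CPM).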

How the results depend on the processing

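Calls among the 34 genes depended on the line being in the model; the cause was not tested. The share of all genes with an adjusted p that were called, in either direction, stands in brackets after each count. For siSirt1 against siCtrl the count was 0 with the group alone (0.127%), 12 with the replicate block (7.07%), 1 with all 15 libraries in 1 fit (0.954%) and 14 with the block there (16.1%), 12 with RLE factors and the block (7.01%), 14 with no count filter and the block (6.03%), 1 with DESeq2 (2.19%) and 14 with DESeq2 and the block (14.1%); blocked fits without 1 line gave 5 to 9 (2.2% to 3.85%). For siLmod1 against siCtrl it was 0 with the group alone (0.113%), 5 with the replicate block (29.5%), 2 with all libraries and the block (9.08%), 6 with RLE and the block (29.5%), 12 with no filter and the block, 8 higher and 4 lower (15.9%), and 6 with DESeq2 and the block (28.8%); without 1 line it was 3 to 12 (18.8% to 28.1%). For siSirt1 against siLmod1 it was 0 with the group alone (1.53%), 10 with the replicate block (15.9%), 13 with all libraries and the block (26.8%), 10 with RLE and the block (15.9%), 13 with no filter and the block (9.75%), and 13 with DESeq2 and the block (21.2%); without 1 line it was 3 to 7 (6.32% to 11.8%). Group-only fits without 1 library, with RLE, with no filter and by limma on TPM called 0 in each comparison.

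No called fold change turned sign. Among 850 values in each comparison, 41 turned sign in siSirt1 against siCtrl, 85 in siLmod1 against siCtrl and 40 in siSirt1 against siLmod1, all uncalled. limma on log2(TPM + 1) moved the median of all genes to 0.116 in siSirt1 against siCtrl, with 0.43 over the 34. Of 170 differences within lines in each comparison, 9, 5 and 9 turned from below to above 0 by library total, in the same order of comparisons. By library total the Lmod1 and Sirt1 differences were -2.93 and -2.07.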
